A study of Sus scrofa with 12 samples.

Results

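Messenger RNA of porcine aortic valve interstitial cells treated with KPT at Stage 3 of calcification in culture (3 libraries) was compared with that of cells given the solvent DMSO at the same stage (3 libraries). These were 6 of the study's 12 libraries, and the comparison ran over 13046 tested genes of 22861 in the table. Stage 1 (day 5) and Stage 2 (day 8), each with 3 untreated libraries, served as a reference for levels, and together with the 3 DMSO libraries they are called the 9 untreated libraries below. Stage 1 and Stage 2 differ from the Stage 3 libraries in age of the culture and, per the labels, received neither DMSO nor KPT. The labels name no genotype, give glass as the calcification stimulus and DMEM as the medium, and call the tissue aorta and the cells aortic valve interstitial cells. The labels give no dose, no time of exposure, no fuller name for KPT and no day for the Stage 3 libraries. The growth protocol names times of up to 12 days, which the labels do not assign to a stage. They call the samples biological replicates without naming animals, so the origin of the cultures is unstated and a p-value covers only how far these samples spread. Changes in cell cycle, p53, NF-kB and matrix genes are left aside here, and the classes outside them are described.

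Valve interstitial cells resemble fibroblasts and populate the leaflets of heart valves, and on stiff surfaces they take on a contractile, myofibroblast-like state and can form calcified nodules. The letters KPT begin the code names of a family of inhibitors of XPO1, which is also called exportin 1 or CRM1. With the small GTPase RAN in its GTP form, XPO1 carries proteins that bear a leucine-rich export signal, and some RNA and ribosomal particles, from the nucleus to the cytoplasm. Genes below are grouped by role, from the transport machinery through secreted signals, degradation, amino acid supply and translation to RNA handling, metabolism and the cytoskeleton.

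The difference between the groups covered many genes in both directions. At an adjusted p under 0.05 (limma on log2(RPKM + 1), Benjamini-Hochberg), 60.0% of tested genes were called, 30.5% higher with KPT and 29.5% lower, and the median log2 difference over all tested genes was 0.02. A difference of at least 2-fold was called for 802 genes that rose (6.15%) and 1075 that fell (8.24%). The 3 values of each group did not overlap for 65.2% of tested genes. Genes named below by rank or from a list were picked with non-overlap as a condition, so it is no separate support for them. All 3 KPT libraries lay above all 9 untreated libraries for 25.9% of genes and below all 9 for 17.8%. Among called genes these shares were 77.9% of those that rose and 58.9% of those that fell. RPKM is scaled within each library, so the split and the median are relative to that scaling, and 54% of called genes were higher with limma-voom on recovered reads against 50.9% here. The counts for each gene class below are read against these shares, and no class was tested as a set.

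Reads recovered over genes numbered 24685232 to 43293744 per Stage 3 library. Pearson's r between replicates, across genes, was 0.985 to 0.994, and no pair was within sampling noise, with chi-square values of 11 to 47.1 times their degrees of freedom. Fibroblast markers were abundant in both groups, with a sum over 10 genes of 26991 to 29404 RPKM with DMSO and 17170 to 17734 with KPT. Of these 10, POSTN, DCN and LUM rose, while VIM, COL1A2, THY1, COL3A1 and PDGFRB fell. The 14 leukocyte genes summed to 237 to 279 RPKM with DMSO and 268 to 308 with KPT, nearly all of it CD79A, a B cell receptor component, at 242 ± 20.7 RPKM with DMSO and 271 ± 19.4 with KPT. CD14 stood at 12.1 ± 1.18 and 10.7 ± 0.881 RPKM and CD68 at 2.53 ± 1.23 and 2.91 ± 0.779, and these 3 tested genes were not called. Among the others, CD163, ITGAM, MS4A1, NKG7 and TYROBP were listed at 0 in all 6 libraries. The endothelial sum was 92.7 to 116.8 RPKM with DMSO and 70.2 to 74.8 with KPT. Of its 7 tested genes 3 fell and 1 rose. Most of the lower sum lay in ERG, with means of 60.99 RPKM with DMSO and 26.62 with KPT. PECAM1 and TIE1 fell from lower levels, while EGFL7 rose from a mean of 26.65 RPKM with DMSO to 33.43 with KPT. The endothelial list thus had no common direction. Smooth-muscle markers, which activated valve cells share, summed to 506.1 to 553.4 RPKM with DMSO and 88.3 to 118.1 with KPT. DMSO replicate 1 stood apart from the other DMSO libraries across genes. Its r was 0.986 with replicate 2 and 0.985 with replicate 3, against 0.993 between replicates 2 and 3. The chi-square values of these pairs were 40.5, 47.1 and 13 times their degrees of freedom. Interferon-induced genes, described with that list, were among the genes where DMSO replicate 1 differed. In bulk RNA, fewer cells of a kind and less RNA per cell cannot be told apart. The median log2 ratio of the last to the first exon over 6195 genes was 0.366 to 0.449 in the KPT libraries and 0.196 to 0.233 in the DMSO libraries, and the part of this shift in the differences below was not tested.

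**Figure D1:**
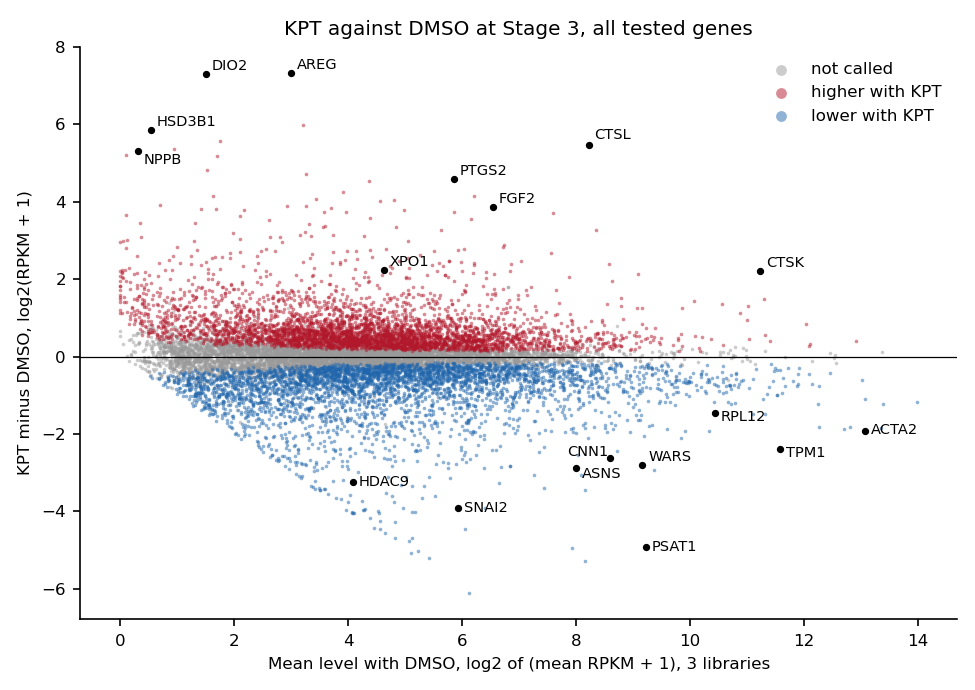
Difference between KPT and DMSO at Stage 3 in log2(RPKM + 1) (vertical axis) against the mean level with DMSO (horizontal axis, log2 scale) for 13046 genes; each point is a gene, red for called higher, blue for called lower and grey for not called, with some genes of the text marked in black. Rises reach 7.33 (AREG) and the points below 0 are bounded by the level that a gene had to lose.

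The target of KPT compounds was itself higher. XPO1 (chromosome 3, 84163385 to 84182474, plus strand; genome build not given in the sources used here) stood at 26.7, 22.4 and 21.8 RPKM with DMSO and 116, 97.3 and 137 with KPT. The KPT libraries lay above all 9 untreated libraries, whose group means were 33.0 ± 1.99 RPKM at Stage 1 and 26.8 ± 6.29 at Stage 2. XPO1 rose by 2.25 on the log2 scale (SE 0.16, adjusted p = 1.0e-07), or 4.93-fold in means, and each of its 21 measured exons was higher.

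Among the other export receptors the directions were mixed. Of 7 tested, 3 rose and 2 fell. XPOT, which exports transfer RNA, stood at 129, 112 and 112 RPKM with DMSO and 54.4, 48.7 and 58.9 with KPT. XPOT fell by 1.11 on the log2 scale (SE 0.10, adjusted p = 1.3e-06). XPO5, the exporter of microRNA precursors, fell (log2 difference -0.48), while XPO4 rose (0.68) and XPO6, which exports actin with profilin, rose (0.35). CSE1L, the exporter that returns importin alpha, missed the threshold at a log2 difference of 0.33 (adjusted p = 0.089). It has 2 IDs in the table and only 3 measured exons.

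Import receptors gave 6 of 15 higher (40%) and 4 lower (26.7%), beside 30.5% and 29.5% of all tested genes. KPNB1, importin beta 1, the main partner of importin alpha, stood at 100.1, 97.8 and 104 RPKM with DMSO and 56.5, 51.8 and 51.6 with KPT. The KPT values were below all 9 untreated libraries, and KPNB1 fell by 0.90 on the log2 scale (SE 0.06, adjusted p = 2.9e-08). IPO5, which imports ribosomal proteins and histones, and SNUPN, the adaptor that returns spliceosomal snRNPs to the nucleus, fell as well (log2 differences of -0.91 and -1.10). TNPO1, transportin 1, rose (0.76). KPNA2 was not analysed here.

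The Ran cycle, which gives transport its direction, moved mostly down. Of 9 tested genes 5 fell, among them RANGAP1, the activator of RAN's GTPase (-0.83), RANBP1 (-0.63) and RAN itself (-0.48). RAN stood at 185, 198 and 198 RPKM with DMSO and 143, 142 and 132 with KPT, a gap wider than the spread in either group. For all 3 genes the KPT level was within the range of the 9 untreated libraries. RANBP2, a filament protein of the nuclear pore, and RANBP10 rose (0.32 and 0.63). Nucleoporins, the building blocks of the pore, gave 8 of 25 higher and 8 lower, and the first of these counts was 4 to 7 when 1 library was left out in turn. It was 4 without DMSO replicate 1, without DMSO replicate 2 or without KPT replicate 1, and 5 without KPT replicate 2 or 3. Factors of bulk mRNA export gave 7 of 17 higher and 1 lower. NXT1, the partner of the export receptor NXF1, stood at 42.5, 61.8 and 57.8 RPKM with DMSO and 102, 118 and 102 with KPT. NXF1 itself was not called (-0.13, adjusted p = 0.17), and the helicase DDX39B fell (-0.66).

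Secreted signals and enzymes of hormone handling held the top rises among the genes described here. AREG, or amphiregulin, a ligand of the EGF receptor, stood at 11.6, 4.18 and 5.27 RPKM with DMSO and 1252, 1109 and 1222 with KPT. DIO2, the deiodinase that turns thyroxine into the active thyroid hormone, stood at 0.371, 2.02 and 3.10 RPKM with DMSO and 420.4, 390.3 and 400.4 with KPT. For both genes each KPT library was above all 9 untreated libraries, whose highest group means were at Stage 1 (29.5 ± 2.38 RPKM for AREG and 9.59 ± 1.09 for DIO2). AREG rose by 7.33 on the log2 scale (SE 0.23, adjusted p = 8.1e-11) and DIO2 rose by 7.30 on the log2 scale (SE 0.30, adjusted p = 6.1e-10). The steroid enzyme HSD3B1, at 0.263, 0.491 and 0.596 RPKM with DMSO and 67.9, 84.2 and 99.6 with KPT, rose by 5.86 on the log2 scale (SE 0.15, adjusted p = 2.1e-11). NPPB, which encodes the natriuretic peptide BNP, came from near 0, at 0.151, 0.148 and 0.427 RPKM with DMSO and 39.9, 51.9 and 55.1 with KPT. Its recovered reads summed to 10 with DMSO and 2058 with KPT, a ratio per library total of 205.8 with a 95% exact counting interval of 111.7 to 429.7, which covers counting error only.

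Outside the cell cycle, p53, NF-kB and matrix genes left aside, further genes were among the 15 with the largest rises. MDK, the heparin-binding growth factor midkine, stood at 79.4, 75.5 and 63.4 RPKM with DMSO and 1222, 1450.1 and 1241 with KPT. MDK rose by 4.15 on the log2 scale (SE 0.09, adjusted p = 6.3e-12), and the KPT values were above all 9 untreated libraries. BDKRB1, the B1 receptor for kinins, stood at 13.6, 12.2 and 16.5 RPKM with DMSO and 291, 288 and 273 with KPT, a log2 difference of 4.25. CHI3L2, a chitinase-like secreted protein (5.58), SUSD4, a complement-regulating membrane protein with 2 IDs in the table (5.37), the peptidase inhibitor PI15 (3.91), MMD (4.53) and the kinesin KIF12 (4.08) also rose, each above all 9 untreated libraries. Of 17 tested genes for hormones and natriuretic peptides and their receptors, 6 rose and 7 fell (median 0.01). Neuropeptide Y (NPY, 2.099) and the parathyroid hormone-related peptide (PTHLH, 1.57) rose, while the growth hormone receptor GHR fell (-1.80).

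**Figure D2:**
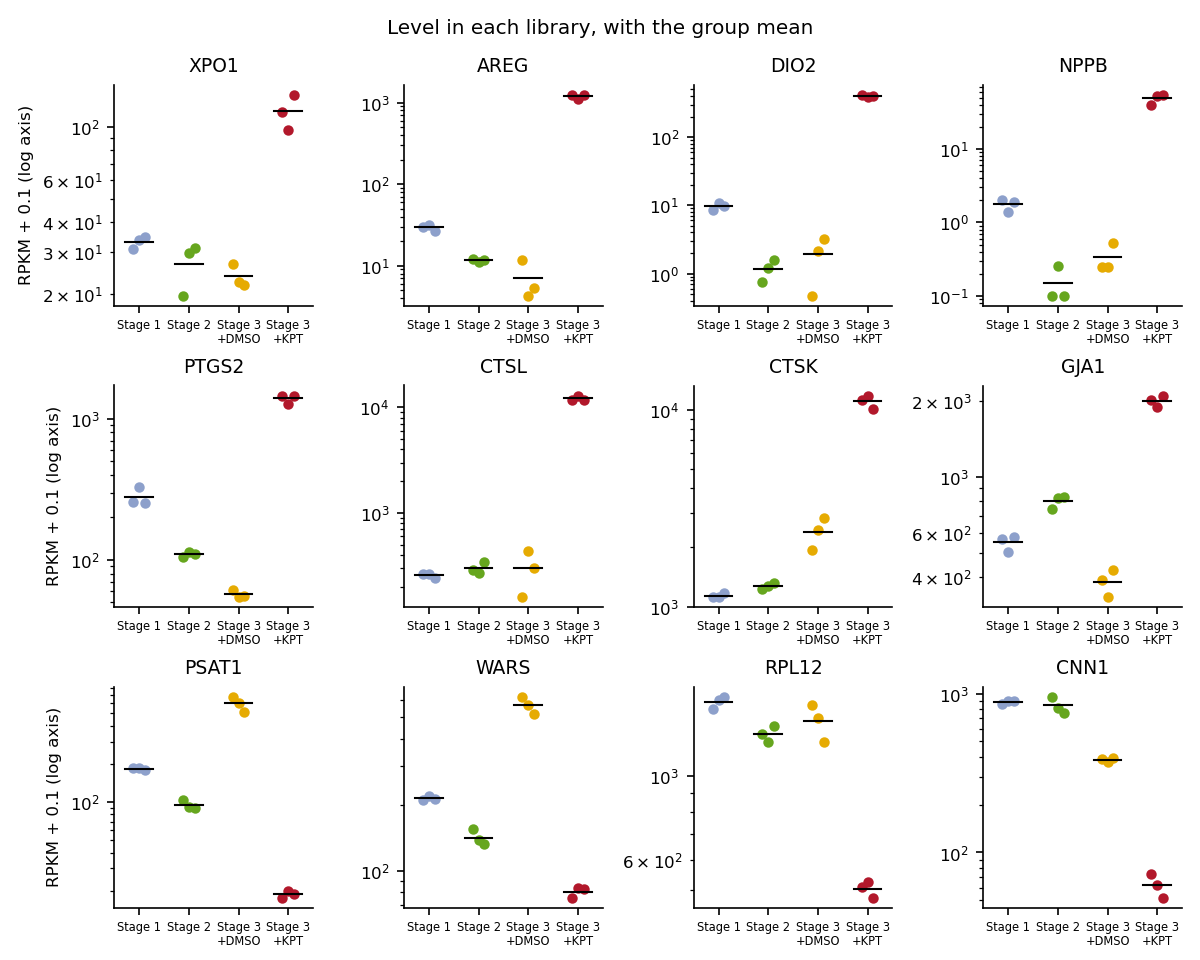
Level of 12 genes in each of the 12 libraries (points; vertical axis RPKM + 0.1 on a log axis that differs between panels), by group on the horizontal axis, with the mean of 3 libraries as a line. In the 8 genes that rose every KPT library is above every other library, and in PSAT1, WARS, RPL12 and CNN1 every KPT library is below.

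The EGF receptor family was measured from ligand to feedback. Ligands of this receptor are shed from the cell surface and activate the RAS and MAPK kinases, which switch on immediate early factors and, with them, their own inhibitors of the sprouty and DUSP families. Of 8 tested ligands, receptors and regulators 6 rose and 1 fell (median 1.09), beside 30.5% and 29.5% of all tested genes. EREG, or epiregulin, lies 49208 bases from AREG on chromosome 8 in the file's coordinates, and stood at 0.227, 0 and 0 RPKM with DMSO and 46.8, 38.2 and 32.9 with KPT. Its recovered reads summed to 2 with DMSO and 1028 with KPT, a ratio per library total of 513.9 (95% exact counting interval 141.9 to 4249). LRIG1, a membrane inhibitor of EGF receptors, rose (1.61) and the receptor gene ERBB2 fell (-0.39).

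MAPK feedback genes gave 14 of 22 higher and 3 lower (median 0.64). SPRY1, a sprouty inhibitor of receptor kinase signalling, stood at 12.9, 14.8 and 15.9 RPKM with DMSO and 199, 207 and 210.2 with KPT. SPRY1 rose by 3.74 on the log2 scale (SE 0.09, adjusted p = 8.8e-12). DUSP4, a nuclear MAPK phosphatase, at 1.66, 3.604 and 3.12 RPKM with DMSO and 22.0, 21.4 and 24.3 with KPT, and SPRY2 also rose (2.67 and 1.81). All 3 lay above the 9 untreated libraries in every KPT library. DUSP14, DUSP7 and RASA1, a GTPase-activating protein for RAS, fell (-1.08, -1.003 and -0.81). Of 25 AP-1 and immediate early factors 13 rose, 8 of them at least 2-fold, and 4 fell. MAFF, a small MAF transcription factor, stood at 11.9, 25.1 and 22.9 RPKM with DMSO and 229.6, 255 and 231 with KPT. The orphan nuclear receptor NR4A2 was at 22.4, 62.8 and 60.5 RPKM with DMSO and 435, 419 and 451 with KPT, and IER3 rose by 2.07 on the log2 scale. SRF, MYC and KLF10 fell (-0.85, -0.77 and -0.68).

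Growth factors of other families moved strongly in both directions. Of 34 tested genes for PDGF, FGF, VEGF and related ligands and their receptors, 15 rose, 12 of them at least 2-fold, and 11 fell, 5 at least 2-fold. FGF2, the basic fibroblast growth factor, stood at 99.2, 83.0 and 93.3 RPKM with DMSO and 1459.5, 1267 and 1313 with KPT. FGF2 rose by 3.86 on the log2 scale (SE 0.13, adjusted p = 1.2e-10). ANGPT1, the ligand of the endothelial receptor TEK, rose from 8.98, 12.9 and 14.2 RPKM with DMSO to 209, 166 and 172 with KPT. HGF, the hepatocyte growth factor, rose from 7.22, 5.30 and 5.37 RPKM with DMSO to 58.6, 55.2 and 58.9 with KPT. In the opposite direction, PDGFA, a PDGF ligand, stood at 33.5, 47.7 and 42.1 RPKM with DMSO and 6.73, 8.75 and 8.399 with KPT and fell below all 9 untreated libraries (-2.23). IGF1 rose (2.48) together with IGFBP5 (1.82) and the protease PAPPA, which cleaves IGF-binding proteins (1.68), while IGFBP6 and STC2 fell (-1.32 and -1.25). In all, 4 of 14 IGF genes rose and 5 fell.

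Of 45 BMP and TGF-beta genes 14 rose and 19 fell. BMP2, a bone-inducing ligand, stood at 2.49, 7.07 and 5.10 RPKM with DMSO and 35.8, 36.7 and 39.6 with KPT. Its antagonist GREM1 stood at 2.73, 1.16 and 1.12 RPKM with DMSO and 34.1, 37.0 and 34.3 with KPT, and ID2, a transcriptional target of BMPs, rose (2.04). Both BMP2 and GREM1 were above all 9 untreated libraries in each KPT library (2.78 and 3.81). TGFB3, at 143, 166 and 128 RPKM with DMSO and 30.6, 33.3 and 30.7 with KPT, and GDF10, of the same superfamily, fell (-2.16 and -2.30). In the Wnt pathway 9 of 34 rose and 17 fell (median -0.26). WNT5A, a ligand that mostly acts without beta-catenin, stood at 1.89, 1.24 and 1.33 RPKM with DMSO and 24.7, 25.8 and 28.3 with KPT, and its paralog WNT5B at 30.6, 25.7 and 21.1 RPKM with DMSO and 6.03, 5.56 and 8.75 with KPT. The 2 paralogs thus moved in opposite directions, WNT5A by 3.46 and WNT5B by -1.79. The inhibitors SFRP1 and WIF1 rose (1.26 and 1.26) and DKK2 and the agonist RSPO3 fell (-1.45 and -1.37). Notch genes gave 6 of 16 in each direction.

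Interferon-induced genes set 1 DMSO library apart. For 32 of 33 tested members DMSO replicate 1 was the highest of all 12 libraries. The median of log2(RPKM + 1) over the list was 4.74 in that library, 2.74 and 2.87 in the other DMSO libraries and 3.14 to 3.19 with KPT, so that the KPT libraries lay between them. With all libraries 2 rose and 6 fell (median log2 difference -0.27). Without DMSO replicate 1, 11 rose and 6 fell and the median was 0.26, the opposite sign. The count that fell was 11 without DMSO replicate 2, 10 without DMSO replicate 3 and 3 without KPT replicate 1, so the list has no direction that held across these libraries.

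Regulators of G-protein signalling included large single changes in both directions. RGS proteins shorten the active time of G-protein alpha subunits, and phosphodiesterases break down cyclic AMP and cyclic GMP. Of 11 tested RGS genes 3 rose and 3 fell. RGS4 stood at 40.4, 95.5 and 75.9 RPKM with DMSO and 762, 723 and 895 with KPT. RGS5, at 3.08, 3.496 and 3.24 RPKM with DMSO and 47.1, 48.0 and 63.6 with KPT, stood at 0.216 ± 0.138 at Stage 1 and 0.240 ± 0.0527 at Stage 2. RGS3 moved the other way, at 308, 434 and 513 RPKM with DMSO and 74.2, 74.0 and 74.8 with KPT. The log2 differences were 3.55 for RGS4, 3.64 for RGS5 and -2.45 for RGS3. PDE4B, which degrades cyclic AMP, rose (2.76) and PDE1A and the adenylyl cyclase ADCY3 fell (-1.74 and -1.71). Over the 64 tested genes of this class 17 rose and 26 fell (median -0.22).

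Genes of successive steps of prostaglandin synthesis were higher. PLA2G4A, the cytosolic phospholipase that frees arachidonic acid, stood at 98.3, 90.5 and 92.8 RPKM with DMSO and 301, 271 and 286 with KPT. PTGS2, the inducible cyclooxygenase that acts next, stood at 61.4, 54.6 and 55.6 RPKM with DMSO and 1459, 1279 and 1453 with KPT. PTGS1, the constitutive cyclooxygenase, stood at 123.4, 110.4 and 107 RPKM with DMSO and 499.9, 585 and 514 with KPT. The KPT values of these 3 genes were above all 9 untreated libraries, and PTGS2 rose by 4.59 on the log2 scale (SE 0.09, adjusted p = 4.1e-12). PTGS1 and PLA2G4A rose by 2.22 and 1.60. LTC4S, the leukotriene C4 synthase, and PTGR1, which degrades prostaglandins and leukotrienes, fell (-1.96 and -1.46). Of 18 tested genes of this class 8 rose and 6 fell (median 0.10).

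Many lysosomal genes rose, most of all cathepsins, the proteases of that compartment. CTSL stood at 159.8, 432 and 301 RPKM with DMSO and 11874, 12949 and 11869.7 with KPT. CTSK, a collagen-degrading cathepsin, stood at 1949, 2442 and 2811 RPKM with DMSO and 11217, 11769 and 10073 with KPT. CTSB was at 2353, 2625 and 2561 RPKM with DMSO and 6464, 7819 and 6979 with KPT. CTSL rose by 5.47 on the log2 scale (SE 0.25, adjusted p = 1.6e-09), CTSK rose by 2.21 on the log2 scale (SE 0.11, adjusted p = 2.8e-09) and CTSB rose by 1.49 on the log2 scale (SE 0.07, adjusted p = 2.0e-09). Of 45 tested hydrolases and lysosomal membrane proteins 24 rose and 9 fell (median 0.29). CTSO and GM2A, the cofactor for ganglioside breakdown, fell (-0.74 and -0.70). The list took 1.42%, 1.55% and 1.59% of the RPKM sum in the DMSO libraries and 4.51%, 4.83% and 4.50% in the KPT libraries. Without CTSL, CTSK and CTSB these shares were 0.979%, 1.00% and 1.02% with DMSO and 1.42%, 1.51% and 1.42% with KPT, so that the summed difference rested mostly on the 3 cathepsins.

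The proton pump that acidifies lysosomes moved more evenly. Of 15 tested subunits and accessory genes 11 rose and 1, ATP6V0D1, fell (-0.21), with a median of 0.50. ATP6AP2, an accessory protein of the pump, stood at 236, 237 and 240.4 RPKM with DMSO and 521, 509.6 and 512 with KPT. ATP6V0E1, of the membrane sector, was at 190.0, 201 and 200.02 RPKM with DMSO and 429.7, 409 and 411 with KPT, and ATP6V1D, of the sector that splits ATP, rose by 1.03. The 11 genes that rose were above all 9 untreated libraries. Autophagy genes gave 24 of 42 higher and 7 lower (median 0.26). ULK1, the kinase that starts autophagy, stood at 31.03, 30.2 and 29.8 RPKM with DMSO and 91.7, 100.4 and 96.9 with KPT. ULK1 rose by 1.63 on the log2 scale (SE 0.07, adjusted p = 6.3e-10), the receptor proteins BNIP3L and TAX1BP1 rose by 0.99 and 0.98, and ATG10, PINK1 and WIPI1 fell (-1.01, -0.74 and -0.73).

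**Figure D3:**
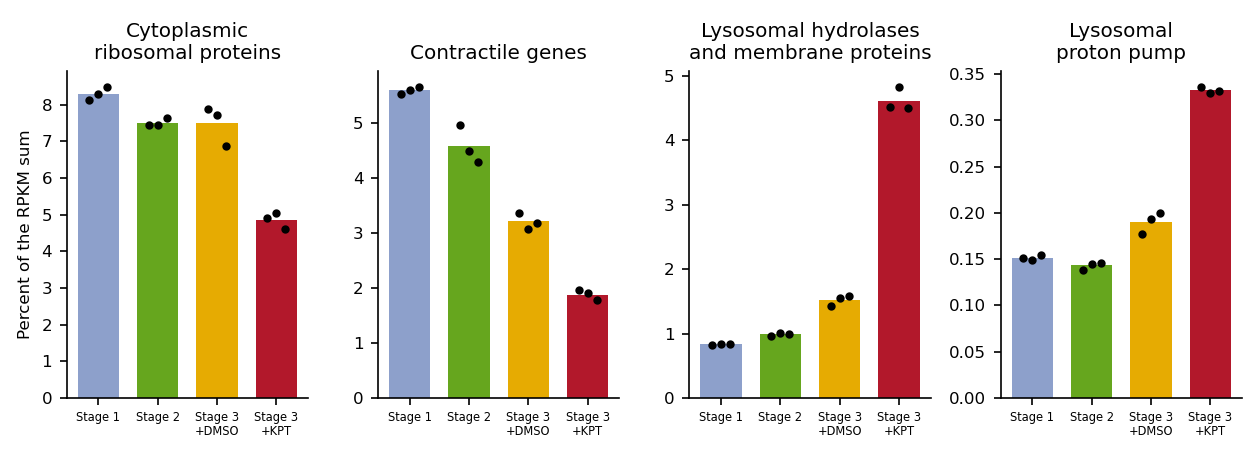
Share of the RPKM sum of each library (vertical axis, percent, from 0) taken by 4 gene lists, by group; bars are means of 3 libraries and points are libraries. With KPT the share of cytoplasmic ribosomal proteins was 4.62% to 5.05% and that of contractile genes 1.77% to 1.96%, below every other library, and both lysosomal shares were above every other library.

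Many proteasome genes rose, most of them by small amounts. Of 39 tested subunits 22 rose and 6 fell (median 0.18), and 12 of 18 subunits of the regulatory particle (PSMC and PSMD genes) were among those that rose. PSMD12 stood at 30.6, 32.9 and 34.7 RPKM with DMSO and 77.6, 65.3 and 76.0 with KPT. PSMB8 and PSMB9, the interferon-inducible catalytic subunits, fell (-1.68 and -0.74; each has 2 IDs in the table). PSMB8 stood at 60.0, 26.1 and 25.1 RPKM with DMSO and 8.46, 12.6 and 9.22 with KPT, so that DMSO replicate 1 was far above the other DMSO libraries. Without that library the log2 differences were -1.28 for PSMB8 and -0.43 for PSMB9, and both kept their call. Among ubiquitin-specific proteases 20 of 40 rose and 6 fell, and among F-box and KLHL adaptors of ubiquitin ligases 29 of 64 rose and 15 fell.

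Genes of amino acid synthesis, many of them known targets of the transcription factor ATF4, were lower. Of 29 tested genes 24 fell, 17 of them at least 2-fold, and 3 rose, with a median of -1.25 beside 0.02 over all tested genes. PSAT1, an enzyme of serine synthesis, stood at 679, 609 and 511 RPKM with DMSO and 17.5, 19.98 and 18.7 with KPT. The DMSO level was above that of the earlier stages (184 ± 3.99 RPKM at Stage 1 and 94.6 ± 7.52 at Stage 2) and the KPT level was below all 9 untreated libraries. PSAT1 fell by 4.92 on the log2 scale (SE 0.09, adjusted p = 2.1e-12). ASNS, the asparagine synthetase, stood at 282, 246 and 239 RPKM with DMSO and 35.4, 32.4 and 34.1 with KPT. SLC1A5, a glutamine transporter, was at 285, 271 and 259 RPKM with DMSO and 30.7, 32.2 and 32.7 with KPT. Of the 24 genes that fell, 14 were below all 9 untreated libraries. The 3 that rose were the amino acid transporter SLC38A2 (1.60), the stress-induced transcription factor ATF3 (1.43) and PPP1R15A, which directs a phosphatase to the initiation factor eIF2 (1.38). ATF3 stood at 25.8, 45.8 and 59.5 RPKM with DMSO and 122.7, 106 and 112 with KPT.

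The enzymes that load amino acids onto transfer RNA moved with them. Of 18 tested aminoacyl-tRNA synthetases of the cytoplasm 14 fell and 1 rose (median -0.84). WARS, which loads tryptophan, stood at 622, 572 and 517 RPKM with DMSO and 75.2, 83.1 and 82.5 with KPT. GARS, for glycine, stood at 671, 653 and 596 RPKM with DMSO and 179, 194 and 186 with KPT. SARS, for serine, stood at 395, 405 and 377 RPKM with DMSO and 119, 118 and 122 with KPT. KPT values of all 3 were below the 9 untreated libraries, and WARS fell by 2.81 on the log2 scale (SE 0.08, adjusted p = 2.4e-11). Over the class, 6 of the 18 genes lay below all 9 untreated libraries in each KPT library. DARS, for aspartate, was the gene that rose (0.48). The class as a whole took 0.380% to 0.405% of the RPKM sum with DMSO, 0.181% to 0.185% with KPT, and 0.195% to 0.200% at Stage 2. Amino acid transporters gave 10 of 22 higher and 10 lower, or 45.5% each, beside 30.5% and 29.5% of all tested genes. SLC43A2, a transporter of large neutral amino acids, stood at 6.39, 9.80 and 7.47 RPKM with DMSO and 73.5, 77.6 and 80.0 with KPT, a log2 difference of 3.15. SLC38A5, a glutamine carrier, fell by a similar amount (-3.05), as did SLC7A2, which takes up arginine and lysine (-2.56). Over all 178 tested solute carriers 72 rose and 54 fell.

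Cytoplasmic ribosomal protein genes were lower almost throughout the list. Of 71 tested genes 65 fell and 2 rose, and 63 lay below all 9 untreated libraries in each KPT library, a position held by 17.8% of all tested genes. The median log2 difference was -0.65. All 39 genes of the large subunit fell (median -0.65) and 25 of 27 of the small subunit (median -0.63), leaving aside 5 paralogs with an L after the symbol. RPL12 stood at 1537, 1417 and 1225 RPKM with DMSO and 509.8, 524 and 476 with KPT. RPL10A was at 1763, 1752 and 1511 RPKM with DMSO and 709, 782 and 644 with KPT, and RPL12 fell by 1.46 on the log2 scale (SE 0.08, adjusted p = 7.0e-09). The paralogs differed from the rest and from each other. RPS27L, a known p53 target, stood at 24.9, 24.7 and 26.8 RPKM with DMSO and 123.2, 121 and 108 with KPT. RPL22L1 stood at 128, 86.5 and 73.6 RPKM with DMSO and 19.9, 13.2 and 17.5 with KPT, so that RPS27L rose by 2.16 while RPL22L1 fell (-2.42), and RPL26L1 rose (0.35). Ribosomal protein genes have many near-identical copies between which reads may be split, so single values of this class are uncertain. The class took 7.88%, 7.73% and 6.88% of the RPKM sum in the DMSO libraries and 4.90%, 5.05% and 4.62% in the KPT libraries.

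Ribosomal proteins of mitochondria, which serve a separate ribosome, gave 31 of 65 higher and 9 lower (median 0.20). MRPL1 stood at 25.1, 21.5 and 19.5 RPKM with DMSO and 62.6, 46.1 and 50.4 with KPT. MRPS6 was at 48.5, 73.9 and 66.6 RPKM with DMSO and 140.4, 135 and 135 with KPT, and both rose (1.23 and 1.12). MRPL55, MRPL20 and MRPL11 fell by less (-0.48, -0.48 and -0.42). Factors that assemble ribosomes gave 21 of 57 higher and 14 lower, and the nucleolar proteins FBL, which methylates ribosomal RNA, and DKC1, which forms pseudouridine, fell (-0.83 and -0.82). Translation factors gave 9 of 56 higher and 24 lower (median -0.14). EEF1G, part of the elongation factor complex that delivers transfer RNA, stood at 897, 882 and 765 RPKM with DMSO and 342, 379 and 344 with KPT. EEF1B2 and the poly(A)-binding protein PABPC4 fell too (-1.16 and -1.18), while the initiation factors EIF5B and EIF2S1 rose (0.59 and 0.51).

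**Figure D4:**
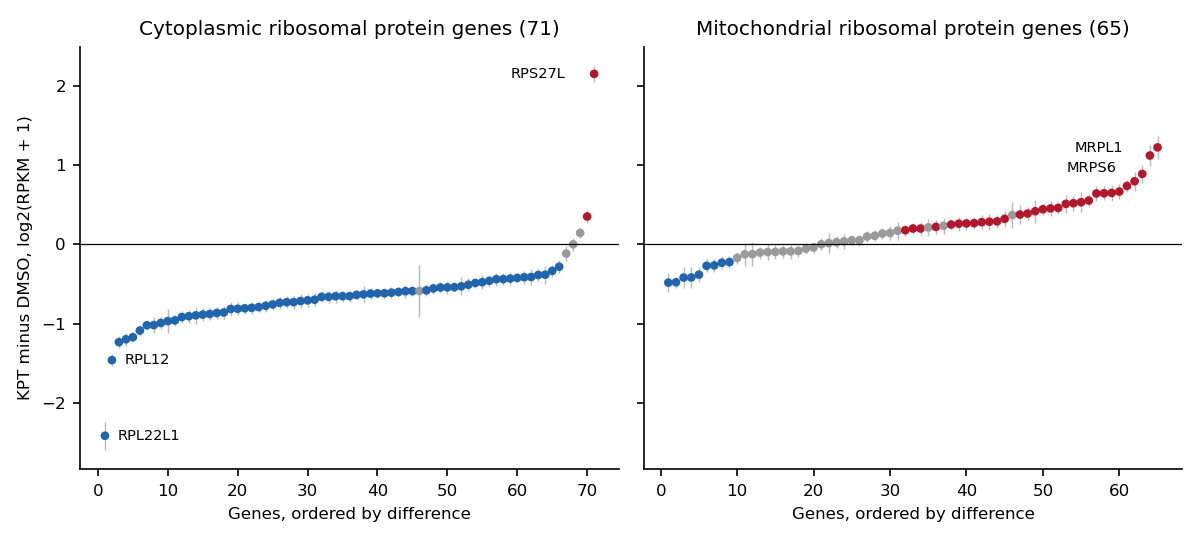
Difference between KPT and DMSO in log2(RPKM + 1), with its standard error as a bar, for 71 cytoplasmic and 65 mitochondrial ribosomal protein genes ordered by size; red is called higher, blue called lower and grey not called. Of the cytoplasmic genes 65 are below 0 and called, against 9 of the mitochondrial genes.

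Most classes of genes that act on RNA rose more often than they fell. RNA decay and deadenylation factors gave 34 of 63 higher and 8 lower (median 0.31). TOB1 and BTG1 belong to a family that recruits the CCR4-NOT deadenylase. TOB1 stood at 67.9, 77.4 and 74.5 RPKM with DMSO and 406, 378 and 396 with KPT. BTG1 was at 117, 149 and 147 RPKM with DMSO and 472, 435 and 467 with KPT, and BTG3 rose as well (1.68). EXOSC10, a nuclease of the nuclear exosome, fell (-0.78). RNA polymerase II, mediator and general factors gave 45 of 88 higher and 6 lower, with differences of at most 1.04 (TAF2). MED4, a mediator subunit, stood at 46.5, 48.8 and 51.7 RPKM with DMSO and 87.2, 95.4 and 93.4 with KPT. Splicing factors gave 34 of 80 higher and 9 lower, with PLRG1, CWC22 and CLK1 at 0.98, 0.96 and 0.85, and with the U1 snRNP protein SNRPA at -0.79. For hnRNPs the counts were 4 of 21 higher and 7 lower, and 1 lower without DMSO replicate 2 or without KPT replicate 3.

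Small nucleolar RNA genes lie mostly in introns of host genes, and they guide modification of ribosomal RNA. Of 126 tested genes for snoRNAs and other small nuclear RNAs 32 rose (25.4%) and 5 fell (3.97%), beside 30.5% and 29.5% of all tested genes. The count that rose was 20 without KPT replicate 3. The groups overlapped for 90 of the 126, and 2 lay above all 9 untreated libraries in each KPT library. The median of log2(RPKM + 1) over the list averaged 1.77 with DMSO, 2.15 with KPT and 2.37 at Stage 1. In 1 cluster on chromosome 9 (127779999 to 127783479) 7 of 8 tested snoRNAs rose, and their reads summed to 170 with DMSO and 550 with KPT. This locus was singled out after its values were seen. SNORD78, within it, stood at 3.88, 0.764 and 0 RPKM with DMSO and 12.1, 9.71 and 18.0 with KPT, and at 13.1 ± 3.09 RPKM at Stage 1, inside the range of the KPT libraries. The mRNA kit used is not made for such short RNAs, and reads of a snoRNA and of its host transcript cannot be told apart. A group of 3 SNORD14 genes appeared at 2 places of chromosome 9 with the same read sums, 105 with DMSO and 246 with KPT, and values from the 2 places are not independent.

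**Figure D5:**
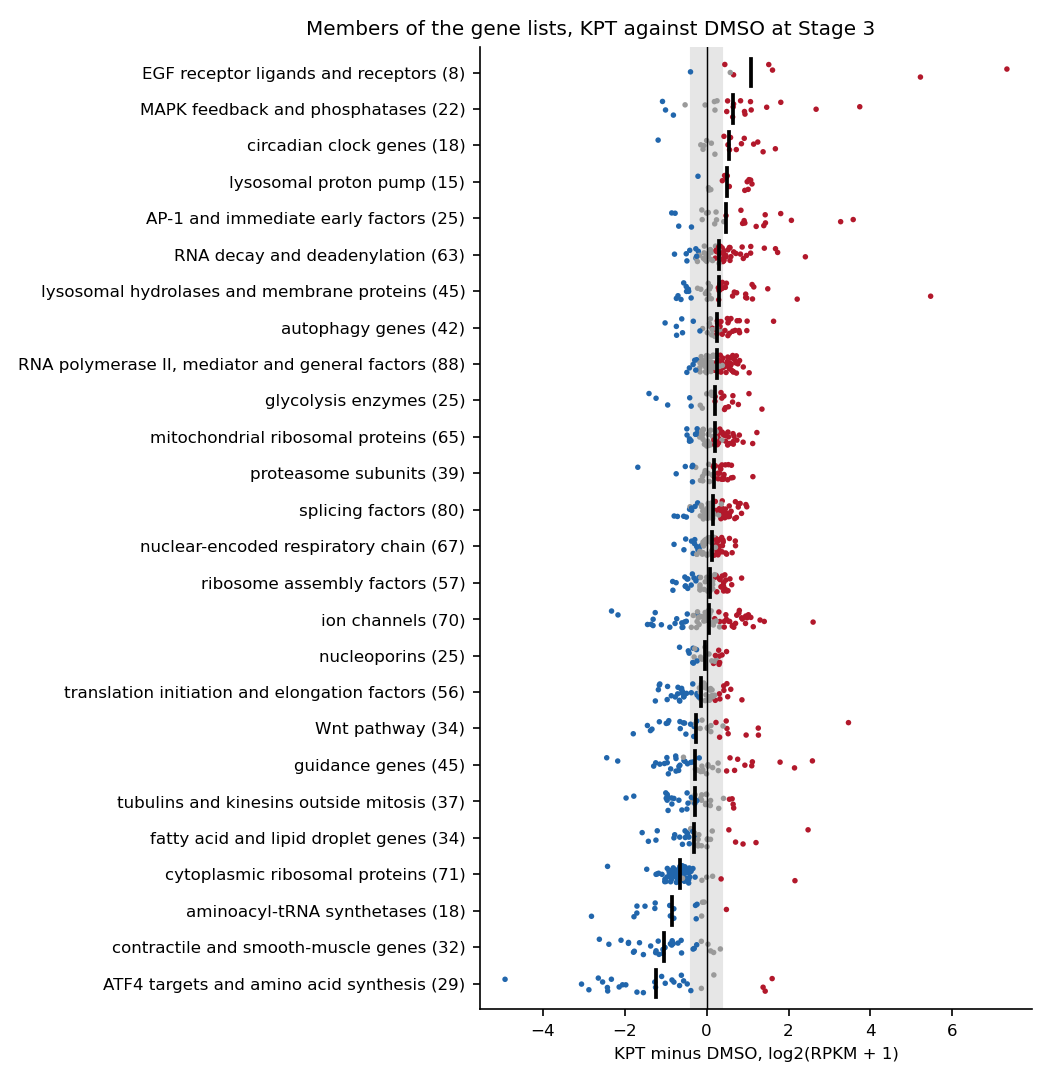
Difference between KPT and DMSO in log2(RPKM + 1) (horizontal axis) for the tested members of 26 gene lists, with the number tested in brackets; points are genes (red called higher, blue called lower, grey not called), black bars are list medians, and the grey band and thin line are the middle 50% and the median of all tested genes. List medians run from -1.25 (ATF4 targets and amino acid synthesis) to 1.09 (EGF receptor ligands and receptors).

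Chaperones showed no common direction. Of 43 heat shock proteins and chaperones 13 rose and 10 fell. HSPA4L, a nucleotide exchange factor for heat shock proteins, stood at 10.7, 7.23 and 9.54 RPKM with DMSO and 97.6, 73.3 and 89.1 with KPT. HSPA2, a heat shock chaperone, stood at 76.6, 52.6 and 53.4 RPKM with DMSO and 13.8, 15.2 and 13.6 with KPT, and the 2 genes moved apart (3.11 and -2.004). Of 36 genes of the endoplasmic reticulum and the unfolded protein response 12 rose and 12 fell. HSPA5, the main chaperone of that compartment, was not called, at 1249.6, 1295 and 1193 RPKM with DMSO and 1333, 1361 and 1314 with KPT (log2 difference 0.10, adjusted p = 0.12). CREB3L1, a membrane-bound transcription factor of secretory cells, and XBP1 fell (-1.94 and -0.88), and EDEM1, which directs misfolded glycoproteins to degradation, rose (1.55). HSPA8 was not analysed here.

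Lipid genes moved in both directions. In cholesterol synthesis and sterol control 13 of 28 rose and 12 fell. HSD17B7, which acts late in cholesterol synthesis, stood at 23.2, 24.1 and 25.5 RPKM with DMSO and 179, 175 and 164 with KPT. Other enzymes of the pathway fell, among them lanosterol synthase LSS (-1.02), TM7SF2 (-1.03) and mevalonate kinase MVK (-0.57). MYLIP, which degrades the LDL receptor, and the cholesterol exporter ABCA1 (2 IDs in the table), both targets of liver X receptors, rose (1.59 and 1.40). Fatty acid and lipid droplet genes fell more often than they rose, 17 against 5 of 34. FABP3, a fatty acid carrier, stood at 85.1, 141 and 112 RPKM with DMSO and 42.8, 43.2 and 26.1 with KPT, while ACSL4, which activates arachidonic acid, stood at 48.3, 54.5 and 57.4 RPKM with DMSO and 303, 277 and 325 with KPT. CPT1A, which admits fatty acids to mitochondria, rose (1.52).

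Glycolysis enzymes gave 13 of 25 higher and 5 lower. LDHA, the lactate dehydrogenase, stood at 998, 1151 and 1128 RPKM with DMSO and 1645, 1580.2 and 1508 with KPT, above the DMSO libraries and below the earlier stages (2719 ± 55.5 and 2809 ± 40.2 RPKM). LDHA rose by 0.53 on the log2 scale (SE 0.06, adjusted p = 1.0e-05), and PFKFB3 and ENO2 likewise rose within the range of the untreated libraries (1.03 and 1.35). VEGFA, of the hypoxia list, had the same position, at 139.6, 127 and 152 RPKM with DMSO and 415, 421 and 421 with KPT beside 592 ± 59.8 at Stage 1. In the citric acid cycle and its entry 7 of 28 rose and 7 fell, and IDH2 and PCK2, the mitochondrial form of PEP carboxykinase, fell (-1.61 and -2.53). Nuclear-encoded respiratory chain genes gave 29 of 67 higher and 11 lower (median 0.12). Of 13 genes of the mitochondrial genome 5 rose and none fell, and 1 rose without DMSO replicate 2 or without KPT replicate 3, and 3 without DMSO replicate 3.

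Redox genes did not share a direction, with 13 of 39 higher and 11 lower. GPX3, the secreted glutathione peroxidase, stood at 14.5, 5.43 and 6.67 RPKM with DMSO and 88.4, 114 and 92.9 with KPT. PRDX6, a peroxiredoxin, was at 39.4, 56.0 and 64.8 RPKM with DMSO and 300.4, 297 and 288 with KPT, and AKR1B1, the aldose reductase, rose (2.48). NQO1, a widely used marker of NRF2 activity, and glutathione reductase GSR fell (-1.22 and -1.17). ALDH1A3, an enzyme of retinoic acid synthesis, stood at 21.9, 18.7 and 12.5 RPKM with DMSO and 3.59, 2.40 and 2.83 with KPT, ALDH1A1, its paralog, fell (-2.72), and so did CRABP2, which carries retinoic acid to its receptor (-2.11). SRD5A1, a steroid 5-alpha-reductase, rose (2.04). These genes belong to a list on steroid, thyroid and retinoid handling that had no common direction, with 16 of 35 higher and 16 lower. FTL, the ferritin light chain that stores iron, rose (0.85) and TFRC, the transferrin receptor, fell (-0.39). They belong to a list on iron handling and metallothioneins, where 5 of 17 tested genes rose and 7 fell (median -0.04).

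Contractile and smooth-muscle genes, the marks of the activated valve cell, were lower. Of 32 tested genes none rose and 27 fell, 17 of them at least 2-fold, and 24 were below all 9 untreated libraries (median -1.04). ACTA2, smooth-muscle actin, stood at 9892, 8014 and 7806 RPKM with DMSO and 2445, 2388 and 1999.8 with KPT. CNN1, or calponin, was at 385, 373 and 395 RPKM with DMSO and 72.8, 62.2 and 51.7 with KPT, and TPM1, a tropomyosin, at 3417, 2794 and 3006 RPKM with DMSO and 667, 598 and 502 with KPT. ACTA2 fell by 1.91 on the log2 scale (SE 0.11, adjusted p = 1.0e-08), CNN1 fell by 2.62 on the log2 scale (SE 0.11, adjusted p = 6.6e-10) and TPM1 fell by 2.39 on the log2 scale (SE 0.10, adjusted p = 7.4e-10). All 3 were already lower with DMSO than at Stage 1, where ACTA2 stood at 18443 ± 574 RPKM, and lay below that again with KPT. The 5 members not called were TPM3, TAGLN, PDLIM5, CNN2 and PLN, with TAGLN at a log2 difference of 0.03.

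Tubulin genes also fell more often than they rose. Tubulins and kinesins outside mitosis gave 4 of 37 higher and 20 lower, with 7 of 11 tubulin genes lower. TUBB6, a beta tubulin, stood at 238, 278 and 251 RPKM with DMSO and 67.1, 64.8 and 61.9 with KPT, and STMN1, which destabilises microtubules, fell (-1.78). Of the small GTPases that act on the actin cytoskeleton, RHOB stood at 368, 429 and 401 RPKM with DMSO and 114, 105 and 108 with KPT, and RND3, which opposes RHOA, at 26.0, 28.8 and 33.1 RPKM with DMSO and 92.5, 87.4 and 90.7 with KPT. The YAP and mechanosensitive list gave 7 of 21 higher and 11 lower, with CTGF (-1.48) and ANKRD1 (-1.96) lower and YAP1 itself higher (1.11).

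At the cell surface, GJA1, a connexin of gap junctions, stood at 387, 333 and 427 RPKM with DMSO and 2019, 1888 and 2099.9 with KPT. GJA1 rose by 2.39 on the log2 scale (SE 0.09, adjusted p = 3.0e-10). Gap junction, tight junction and aquaporin genes as a class gave 5 of 17 higher and 6 lower. Guidance genes gave 10 of 45 higher and 22 lower (median -0.27). The ephrin receptor EPHA2 stood at 19.3, 19.2 and 22.8 RPKM with DMSO and 119, 132 and 131 with KPT, and the semaphorin SEMA6B at 14.8, 12.3 and 10.7 RPKM with DMSO and 1.38, 1.54 and 1.56 with KPT. Integrins and cadherins gave 15 of 50 higher and 17 lower. Ion channels gave 27 of 70 higher and 18 lower. In vesicle traffic, SNAREs and coats gave 23 of 73 higher and 24 lower, and RAB GTPases 13 of 41 and 9. STXBP6, a SNARE-binding protein, fell (-2.78).

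Transcription factors outside the immediate early class included large single changes. SNAI2, or SLUG, a factor of mesenchymal cells, stood at 85.6, 50.4 and 44.2 RPKM with DMSO and 2.28, 3.41 and 3.16 with KPT. SNAI2 fell by 3.90 on the log2 scale (SE 0.20, adjusted p = 3.7e-09). TBX3, at 14.6, 16.7 and 18.6 RPKM with DMSO and 111, 112 and 121 with KPT, rose (2.72). LMCD1, a LIM-domain cofactor, and HDAC9, a class IIa histone deacetylase, were among the 15 largest falls of named genes outside the cell cycle, p53, NF-kB and matrix lists (-3.599 and -3.24), as was NREP, a protein named for neuronal regeneration (-3.66). HDAC9 stood at 11.6, 19.7 and 16.4 RPKM with DMSO and 0.750, 0.910 and 0.604 with KPT. Zinc finger ZNF and ZFP genes, the largest family counted, gave 69 of 269 higher and 42 lower, and histone and DNA modifying enzymes 34 of 116 and 27. Circadian clock genes gave 11 of 18 higher and 1 lower (median 0.54). PER1 stood at 4.29, 8.00 and 9.23 RPKM with DMSO and 20.8, 26.2 and 25.9 with KPT and PER2, its paralog, at 2.14, 4.44 and 5.87 RPKM with DMSO and 1.19, 1.20 and 1.08 with KPT, so that these repressors of the clock moved in opposite directions. The kinase gene CSNK1E and ARNTL2 rose (1.25 and 1.38).

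Genes tied to calcification moved in no single direction. Of 12 tested osteogenic and mineralisation genes 4 rose and 3 fell, and of 10 calcification inhibitors 3 rose and 2 fell. RUNX2, the bone-forming transcription factor, which has 2 IDs in the table, stood at 9.38, 7.57 and 9.70 RPKM with DMSO and 32.0, 30.3 and 36.9 with KPT. RUNX2 rose by 1.79 on the log2 scale (SE 0.10, adjusted p = 7.3e-09). SOX9, of cartilage, also rose (1.01). MGP, the matrix Gla protein that inhibits calcification, stood at 3839.8, 4903 and 4392 RPKM with DMSO and 5308, 5574 and 5425 with KPT. SPP1, or osteopontin, was at 10.1, 30.5 and 35.8 RPKM with DMSO and 18.3, 17.8 and 19.2 with KPT and was not called (log2 difference -0.27, adjusted p = 0.49). DMSO replicate 1 was below and the other DMSO libraries above the KPT values. TNFRSF11B, or osteoprotegerin, stood at 37.8, 54.9 and 49.9 RPKM with DMSO and 11.5, 11.2 and 11.7 with KPT, below all 9 untreated libraries with KPT. CEBPB, a C/EBP transcription factor, rose (1.27) to a level within the range of the untreated libraries.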

How the data were processed

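Libraries (Illumina TruSeq Stranded mRNA kit, 500 ng of total RNA each, per the labels' protocols) went through TopHat2 2.1.0 (named in the submitters' processing notes). Names of the counting tool, genome build and gene annotation were not given in the sources used here. What the authors deposited were RPKM values, scaled to exon length and a library total, for 22861 genes and 189618 exons. RPKM multiplied by exon length and a library total gave whole reads within 0.0001 for 100% of values, with library totals of 13188023 to 24724019. Reads summed over genes were 1.751 to 1.813 times those totals, and why is not stated. Counting intervals treat every read as independent and cover counting error only, so they may be too narrow. RPKM is relative within a library, so total RNA per cell is not measured. Whether strand was used in counting is not stated, and overlapping, antisense and near-identical genes may share reads.

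Genes with an RPKM of at least 1 in at least 3 of the 12 libraries were tested on log2(RPKM + 1) with limma 3.58.1 (R 4.3.3), using 1 coefficient per group over all 12 libraries and an expression trend. A gene was called at a p under 0.05 after Benjamini-Hochberg adjustment over all tested genes. Log2 differences are KPT minus DMSO on that scale and understate changes of low genes. Values after ± are SDs over 3 libraries. The fit was first tested on simulated data. Genes named are the 15 that rose most and the 15 that fell most, if called, given a symbol, with groups that do not overlap and a mean RPKM of at least 5 in the higher group, leaving out fixed cell cycle, p53, NF-kB and matrix lists, up to 3 called members of each list in each direction, and a fixed panel, with some left out for length. The members taken from lists also needed groups that do not overlap. Single genes named outside this rule, among them TAGLN and the chromosome 9 snoRNA cluster, were chosen after their values were seen, as were the splits of lists by symbol. The comparison, lists and panel were chosen with earlier results of these data known. HSPA8 and KPNA2 of the panel are not analysed here, and some other genes the rule takes are not reported here. Alternative settings changed the pseudocount (0.1 or 0.5), the filter (none, or RPKM of at least 5), the scaling (median ratio or quantiles), the moderation (no trend), the libraries fitted (the 2 groups alone), weights by library quality, a term for the replicate number, the method (limma-voom on recovered reads) and the samples (each Stage 3 library left out).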

Additional observations from a re-analysis of the deposited data

How the results depend on the processing

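The number of genes higher with KPT was 3592 to 4371 under the 11 alternative settings and 3585 to 3831 when each Stage 3 library was left out in turn. The number lower was 3302 to 4002 and 3492 to 3734. No named gene changed direction where it was called in the main fit or in the setting compared. Changes of direction without any call were not counted. Of 438 called named genes, 422 stayed called in every one of the 17 settings that tested them. A gene that a filter left out of a setting was not counted as lost there. Among the 16 others, HIST2H2BF lost its call in 11 settings, CMPK2 in 9, SNORD58 and TAF15 in 7 and USP18 in 6. The 438 genes were counted because they were called in the main fit, so a high share kept was partly built in. The median of all genes shifted by -0.017 after median-ratio rescaling and by 0.030 with limma-voom. Whether the replicate numbers pair the samples is not stated in the labels, and so few libraries cannot decide it. Correlations of same-numbered deviations were 0.0655, 0.0748 and 0.0334. Each KPT library correlated best with the DMSO library of its own number, which is a hint from the data and not from the design. With a replicate block, 3908 genes were higher and 3817 lower.

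Counts of 5 lists moved by over 1.5 times, and the cause was not tested. Nucleoporins higher were 8, and 5 after median-ratio rescaling or quantile normalization (4 to 7 with 1 library left out). Mitochondrially encoded genes higher were 5, and 3 with no filter, 8 after quantile normalization and 3 with no trend (1 to 6). Interferon-induced genes lower were 6, and 3 at a minimum RPKM of 5, which tests fewer genes (3 to 11). The hnRNPs lower were 7, and 4 with no trend or with the 2 groups alone (1 to 6). The snoRNA and small nuclear RNA genes higher were 32, and 21 with a pseudocount of 0.1 and 19 at a minimum RPKM of 5 (20 to 33). These genes had a median of 45 reads over the 6 Stage 3 libraries against 4208 for all tested genes.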

Other observations

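Several smaller classes were counted that have no place above. Golgi glycosyltransferases, which build the sugar chains of secreted and surface proteins, gave 19 of 72 genes higher with KPT and 26 lower. HS6ST1, a sulfotransferase of heparan sulfate chains, rose (2.29) and CHSY3, which extends chondroitin sulfate, fell (-2.01). Tetraspanins, organisers of membrane domains, gave 5 of 18 higher and 9 lower, with TSPAN13 at a log2 difference of 1.88 and TSPAN2 at -1.33. Receptor protein tyrosine phosphatases gave 3 of 10 higher and 6 lower. ABC transporters gave 8 of 24 higher and 5 lower, and the drug exporter ABCG2 fell (-1.77). KLF and SP factors gave 2 of 14 higher, KLF9 (1.77) and KLF4 (1.21), and 6 lower, among them KLF5 (-1.77). KLF9, a target of glucocorticoid and thyroid hormone receptors, stood at 23.3, 21.8 and 21.5 RPKM with DMSO and 79.6, 73.2 and 80.7 with KPT, above all 9 untreated libraries.

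Median log2 differences rose slightly with gene length. They were -0.01 over 3262 genes of at most 1004 bases of exon and 0.06 over 3262 genes of at least 3192 bases. Between these groups the share called higher went from 23.8% to 35.7% and the share called lower from 27% to 29.7%. A larger share of long genes was thus called in each direction.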
